A study of Mus musculus with 12 samples.

Results

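The genes of the unfolded protein response and the integrated stress response were followed in the cecum of mice from 3 to 72 h after a burn injury that leads to adhesions. The 9 genes were Hspa5, Sdf2l1, Herpud1, Xbp1, Atf4, Ddit3, Trib3, Chac1 and Asns, chosen by symbol among 27248 named genes on the array. They were covered by 17 of 56605 probes, and all 17 probes were well above background on all 12 arrays. RNA of whole cecum tissue was measured on 1-colour Agilent microarrays (SurePrint G3 Mouse GE v2), where a brighter spot means more of its transcript. The 12 arrays formed 4 groups of 3, namely sham control and tissue taken 3, 12 and 72 h after cauterization.

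All 4 groups were taken to be wild-type C57BL/6 (B6) mice. The study's methods list this strain and a WT-1 reporter strain, which it describes for staining, and its array section names neither. No drug treatment beyond the anesthesia of the operation is described for the array mice, and their age is not given in the sources used here. In the cauterized groups the abdomen was opened under anesthesia and the cecum was touched with bipolar forceps in coagulation mode, whereas the sham control was taken at 0 h after the sham operation, so time since surgery differs between sham and every other group. There was therefore no sham group at 3, 12 or 72 h, and the burn cannot be told apart from the time after surgery and anesthesia. The study describes the arrays as biological triplicates. The labels call the mice male, but Xist, with 1 probe, exceeded background on each of the 12 arrays, and the probes of Ddx3y and Eif2s3y were so on 0 arrays. Kdm5d had 1 of 6 probes above background on 12 arrays and Uty had 1 of 3 on 1 array. The sham and 3 h arrays and 12 h replicates 1 and 2 lay on the first slide, and 12 h replicate 3 and the 72 h arrays lay on the second.

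The endoplasmic reticulum (ER) folds secreted and membrane proteins, and unfolded proteins there are sensed by IRE1 (gene Ern1), ATF6 and PERK (gene Eif2ak3). IRE1 splices the mRNA of Xbp1, and XBP1 and ATF6 raise chaperones and the machinery that degrades misfolded proteins. PERK and other kinases that sense amino acid shortage, viral RNA or heme deficiency phosphorylate eIF2α, which lowers translation in general while favoring that of Atf4, and ATF4 and CHOP (gene Ddit3) then raise genes of amino acid supply and feedback. In the gut, goblet cells and plasma cells secrete heavily and depend on this response.

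Short DNA elements that these factors are known to bind were looked for in the promoters of the 9 genes, as a description. Other forms of these elements were not searched, so the matches do not assign a gene to a regulator. RefSeq windows (GRCm38.p6) from 250 bases before to 50 bases after the start of each gene were searched on both strands, and all 9 genes had a window. The ER stress response element (ERSE) was searched as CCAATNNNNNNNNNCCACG, the element bound by C/EBP-ATF dimers (CARE) as TGATGNAA, and the unfolded protein response element (UPRE) as TGACGTGG. The ERSE was found in 39 of 32851 promoters (0.119%), the CARE in 1304 (3.97%) and the UPRE in 222 (0.676%). Among the 9 genes, Hspa5 held the ERSE, Chac1, Asns, Herpud1 and Trib3 held the CARE, and 4 genes held none of the 3. The match of Trib3 lay after the start and is not printed. A match is a description of letters and not of binding, and no match says only that these letters are not in the window. The 250 bases before the start are given below for the 4 genes with a match there, with the match in capitals, 5′ to 3′ on the strand of the gene.
Hspa5, chr2:34771840-34772089, plus strand: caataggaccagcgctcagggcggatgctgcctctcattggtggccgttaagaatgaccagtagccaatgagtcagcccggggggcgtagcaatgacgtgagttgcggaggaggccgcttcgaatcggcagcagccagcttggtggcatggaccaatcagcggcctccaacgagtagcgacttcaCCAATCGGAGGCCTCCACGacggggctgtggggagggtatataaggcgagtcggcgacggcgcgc
Chac1, chr2:119350992-119351241, plus strand: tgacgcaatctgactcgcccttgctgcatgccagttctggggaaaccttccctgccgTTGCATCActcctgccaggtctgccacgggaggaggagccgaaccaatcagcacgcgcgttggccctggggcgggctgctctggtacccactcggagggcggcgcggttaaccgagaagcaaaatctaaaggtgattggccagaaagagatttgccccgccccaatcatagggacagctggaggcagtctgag
Asns, chr6:7693210-7693459, minus strand: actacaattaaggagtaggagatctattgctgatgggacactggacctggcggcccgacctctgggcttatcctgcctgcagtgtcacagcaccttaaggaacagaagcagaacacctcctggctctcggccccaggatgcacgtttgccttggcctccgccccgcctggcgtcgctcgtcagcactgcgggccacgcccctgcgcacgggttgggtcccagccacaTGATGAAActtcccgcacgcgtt
Herpud1, chr8:94386179-94386428, plus strand: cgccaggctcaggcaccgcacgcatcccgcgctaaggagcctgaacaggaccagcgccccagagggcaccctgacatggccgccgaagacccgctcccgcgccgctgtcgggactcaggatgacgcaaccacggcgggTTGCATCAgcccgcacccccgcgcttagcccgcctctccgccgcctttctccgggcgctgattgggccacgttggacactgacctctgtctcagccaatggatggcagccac

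The ERSE of Hspa5 began 65 bases before the start. The CARE began 193 bases before the start in Chac1, 112 bases before it in Herpud1 and 23 bases before it in Asns, on the reverse strand in Chac1 and Herpud1. Of these 4 genes, Hspa5, Chac1 and Asns were called higher than sham at 1 or more time points, and Herpud1 was not. Among the genes without a match before the start, Atf4, Trib3 and Sdf2l1 were also called, and Xbp1 and Ddit3 were not. Whether matches go with calls was not tested.

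The level of a probe is its log2 intensity after subtraction of the array's 75th percentile, and a difference of 1 on this scale is a 2-fold change. Levels are compared between groups and not between genes. Differences came from a limma fit of the 12 arrays, with p-values adjusted by Benjamini-Hochberg across every probe, and a gene was called where the fold change exceeded 2 and the adjusted p was below 0.05. For a gene with several probes, the brightest on average stood for the gene. At 3 h, 4 of the 9 genes were called higher than sham, namely Hspa5, Atf4, Trib3 and Chac1, and 0 were lower, against 3.71% of all genes called higher. At 12 h, Hspa5, Sdf2l1, Chac1 and Asns were called higher, again 4 of 9, against 4.63% of all genes. At 72 h, 0 of 9 were called by limma, also 0 at a 2-fold change with an unadjusted p under 0.05, against 5.51% of all genes called higher and 4.46% called lower. Without the fold threshold, 6 of 9 passed the adjusted p upward at 3 h and 6 at 12 h, against 9.65% and 9.62% of all genes. The median log2 fold change of the 9 genes was 0.98, 0.89 and 0.30 at 3, 12 and 72 h, beside 0.05, -0.05 and -0.14 over all genes. All 3 arrays lay above all sham arrays for 6, 9 and 4 genes at 3, 12 and 72 h, where this held for 26.7%, 16% and 14.6% of all genes. In the moderated F-test over the 4 groups, 6 of the 9 genes passed the adjusted p, against 44.6% of all genes. Since the tissue was taken whole, more RNA per cell and more cells of a type cannot be told apart.

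The count at 3 h rested on values near the threshold. It was 1 without sham replicate 1, sham replicate 2 or 3 h replicate 3, 2 without 3 h replicate 1 or 3 h replicate 2, and 2 within the first slide, which holds all sham and 3 h arrays. At 72 h it was 1 without sham replicate 3 (Hspa5, log2 fold change 1.02, adjusted p = 0.00286 by limma) or without 12 h replicate 1 (Chac1, 1.06, adjusted p = 0.0291). Sham and 72 h lay on different slides linked through the 12 h arrays alone. A fit with the slide as a block kept the count at 0 for 72 h, with Chac1 at 2.46 (adjusted p = 0.198 by limma) and Trib3 at 1.53 (adjusted p = 0.145).

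**Figure D1:**
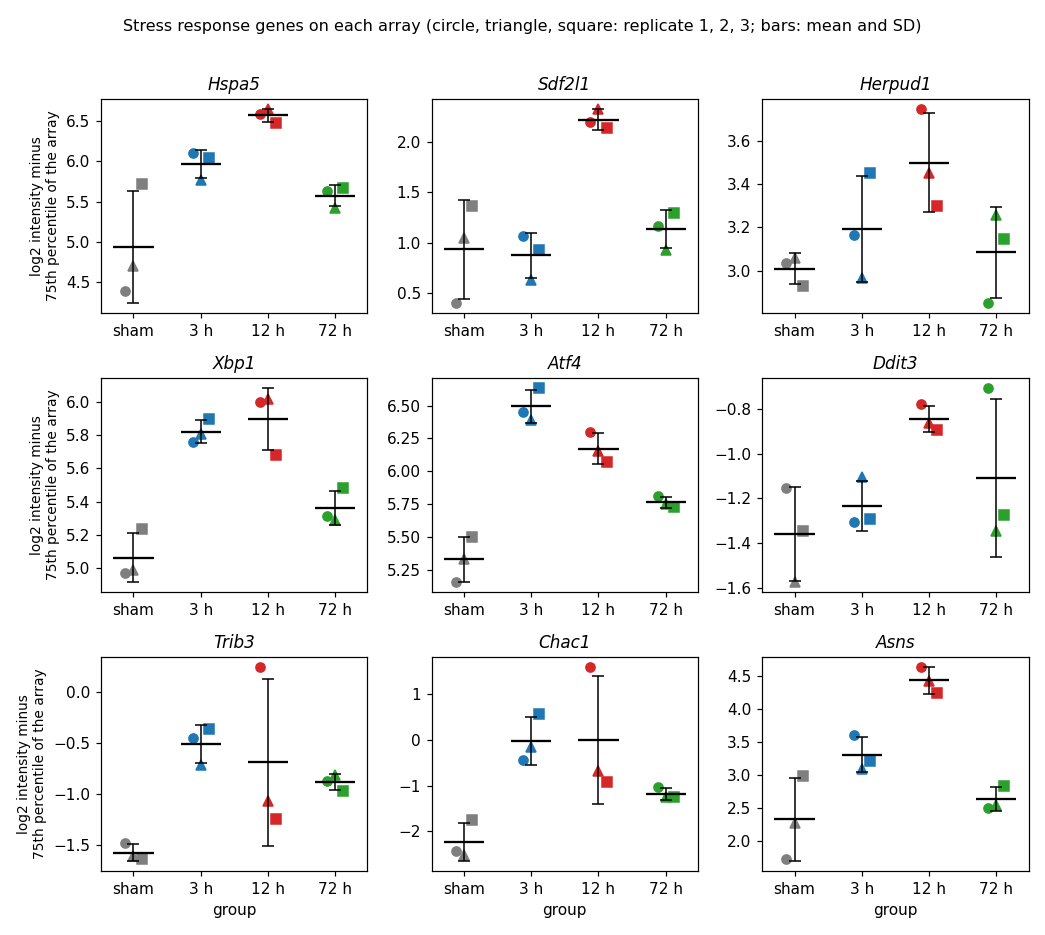
Level of the 9 genes on each of the 12 arrays, with log2 intensity relative to the array's 75th percentile on the vertical axis, by group on the horizontal axis. Symbols are the 3 replicates and bars the mean and SD. Hspa5, Sdf2l1 and Asns were highest at 12 h and Atf4 at 3 h, and 12 h replicate 1 stands above the other 12 h arrays in Trib3 and Chac1.

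Among the chaperones, Hspa5 encodes BiP, the Hsp70 of the ER lumen that binds unfolded proteins and holds the sensors inactive. Its level was 4.39, 4.71 and 5.72 in sham, 6.10, 5.76 and 6.04 at 3 h, 6.59, 6.64 and 6.48 at 12 h, with 5.63, 5.42 and 5.67 at 72 h. All arrays at 3 and 12 h lay above the 3 sham arrays, and the 72 h arrays lay within the sham range. Against sham the log2 fold change was 1.03 (SE 0.28, adjusted p = 0.0287 by limma) at 3 h, 1.63 (adjusted p = 0.00251) at 12 h and 0.63 (adjusted p = 0.143) at 72 h. At 3 h it stood just above the 2-fold threshold, and the call was lost without sham replicate 1 (0.75), sham replicate 2 (0.91), 3 h replicate 1 (0.96) or 3 h replicate 3 (0.99), while the call at 12 h was kept whichever single array was left out.

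Sdf2l1, which encodes an ER resident partner of BiP, did not follow Hspa5 at 3 h. Its level was 0.39, 1.04 and 1.37 in sham, 1.06, 0.63 and 0.92 at 3 h, 2.21, 2.34 and 2.14 at 12 h, with 1.17, 0.93 and 1.30 at 72 h. The 12 h arrays lay above the other 9 arrays, whereas the 3 and 72 h arrays lay within the sham range. Relative to sham it differed by -0.06 on the log2 scale at 3 h (SE 0.23, adjusted p = 0.868 by limma), 1.29 at 12 h (adjusted p = 0.00282) and 0.20 at 72 h (adjusted p = 0.573).

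Herpud1 encodes an ER membrane protein that serves the degradation of misfolded proteins. Its level was 3.04, 3.06 and 2.93 in sham, 3.16, 2.96 and 3.45 at 3 h, 3.75, 3.45 and 3.30 at 12 h, with 2.85, 3.26 and 3.15 at 72 h. The 12 h arrays lay above the sham arrays and the other groups overlapped sham. Its log2 fold change was 0.49 at 12 h (SE 0.17, adjusted p = 0.0614 by limma), and Herpud1 was not called at any time. Its second probe gave 0.61 at 12 h (adjusted p = 0.0353), also under 2-fold.

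Xbp1 encodes the transcription factor made from the mRNA that IRE1 splices. The arrays do not tell the spliced from the unspliced form. The level of its brightest probe was 4.97, 4.99 and 5.24 in sham, 5.76, 5.81 and 5.90 at 3 h, 6.00, 6.01 and 5.68 at 12 h, with 5.31, 5.29 and 5.48 at 72 h. Every array at 3, 12 and 72 h lay above the sham arrays. On the log2 scale it differed from sham by 0.76 at 3 h (SE 0.13, adjusted p = 0.00284 by limma) and 0.83 at 12 h (adjusted p = 0.00127), under the 2-fold threshold, and 0.30 at 72 h (adjusted p = 0.129). The other 2 probes of Xbp1 gave 1.102 and 1.116 at 12 h and were called there, and with the mean of the 3 probes the gene was called at 12 h (1.02, adjusted p = 0.000652).

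Atf4 encodes the factor whose translation rises when eIF2α is phosphorylated, and its mRNA is measured here. Its level was 5.15, 5.33 and 5.50 in sham, 6.45, 6.39 and 6.64 at 3 h, 6.30, 6.15 and 6.07 at 12 h, with 5.81, 5.75 and 5.73 at 72 h. No array of any later group overlapped sham, and the 4 groups did not overlap each other. The log2 fold change was 1.17 at 3 h (SE 0.12, adjusted p = 0.000229 by limma), 0.84 at 12 h (adjusted p = 0.000909) and 0.43 at 72 h (adjusted p = 0.0286), of which the first was called. The call at 3 h was kept whichever single array was left out, and with quantile normalization the value was 0.89 and under 2-fold. The second probe of Atf4 gave 1.30 at 3 h and 1.07 at 12 h and was called at both times.

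Ddit3 encodes CHOP, a partner of ATF4 that is linked to cell death in prolonged ER stress. Its 2 probes differed, and the brighter one belongs to an Ensembl transcript (ENSMUST00000134686, mm9 chr10:126731579-126731638) and not to the RefSeq transcript. The level of that probe was -1.15, -1.57 and -1.35 in sham, -1.31, -1.11 and -1.29 at 3 h, -0.78, -0.86 and -0.89 at 12 h, with -0.70, -1.35 and -1.27 at 72 h, and it was not called at any time (0.52 at 12 h, adjusted p = 0.0624 by limma). The other probe was designed from the RefSeq transcript (NM_007837) and spans mm9 chr10:126732518-126732821, and its 60 bases are printed because the call for the gene depends on the choice of probe.
Ddit3 probe of the RefSeq transcript: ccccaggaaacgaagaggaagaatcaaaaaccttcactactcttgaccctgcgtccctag

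The level of this probe was -1.43, -1.67 and -1.76 in sham, -2.05, -1.55 and -0.99 at 3 h, -0.50, -0.58 and -0.58 at 12 h, with -1.12, -1.25 and -0.76 at 72 h. All 12 h arrays lay above all arrays of the other groups, while the 3 h arrays spread wider than the sham arrays and overlapped them. Its log2 fold change at 12 h was 1.07 (SE 0.24, adjusted p = 0.00973 by limma), which was called. At 3 h it was 0.09 (adjusted p = 0.814).

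Trib3 encodes a pseudokinase induced by ATF4 and CHOP that feeds back on them. Its level was -1.48, -1.61 and -1.64 in sham, -0.45, -0.72 and -0.36 at 3 h, 0.25, -1.07 and -1.25 at 12 h, with -0.87, -0.82 and -0.97 at 72 h. All later arrays lay above sham, and 12 h replicate 1 stood above the other 2 arrays of its group. The log2 fold change was 1.07 at 3 h (SE 0.32, adjusted p = 0.0423 by limma), 0.89 at 12 h (adjusted p = 0.0755) and 0.69 at 72 h (adjusted p = 0.163). The call at 3 h was lost without any 1 of the sham, 3 h or 72 h arrays (0.99 to 1.17), and the value at 12 h was 0.42 without 12 h replicate 1, 1.08 without 12 h replicate 2 and 1.17 (adjusted p = 0.0296) without 12 h replicate 3.

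Chac1 encodes an enzyme that degrades glutathione and is a target of ATF4. Its level was -2.45, -2.52 and -1.75 in sham, -0.45, -0.16 and 0.57 at 3 h, 1.61, -0.67 and -0.93 at 12 h, with -1.03, -1.25 and -1.26 at 72 h. No later array overlapped sham, and 12 h replicate 1 was again the highest array of its group. The log2 fold change was 2.23 at 3 h (SE 0.57, adjusted p = 0.0227 by limma), 2.24 at 12 h (adjusted p = 0.0192) and 1.06 at 72 h (adjusted p = 0.233), and the first 2 were called. Without 12 h replicate 1 the value at 12 h was 1.44 (adjusted p = 0.0149). The call at 3 h was lost without sham replicate 1 (2.12), sham replicate 2 (2.09), 3 h replicate 2 (2.30) or 3 h replicate 3 (1.94), and the call at 12 h without sham replicate 1 (2.14) or sham replicate 2 (2.11).

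Asns encodes asparagine synthetase, which makes asparagine and is a classical ATF4 target. Its level was 1.73, 2.27 and 2.98 in sham, 3.60, 3.10 and 3.22 at 3 h, 4.64, 4.42 and 4.24 at 12 h, with 2.51, 2.55 and 2.84 at 72 h. The 12 h arrays lay above the other 9 arrays, the 3 h arrays lay just above sham, and the 72 h arrays lay within the sham range. The log2 fold change was 0.98 at 3 h (SE 0.28, adjusted p = 0.0353 by limma), just under the fold threshold, 2.11 at 12 h (adjusted p = 0.000617) and 0.30 at 72 h (adjusted p = 0.486). The value at 3 h was 0.68 without sham replicate 1 and 1.31 without sham replicate 3, where it was called, and at 72 h it was 0.004 and 0.63 without these arrays. At 3 h the second probe of Asns gave 1.15 and was called with all arrays. Sham replicate 3 was the highest sham array for 6 of the 9 genes, Hspa5, Xbp1, Atf4, Chac1, Asns and Sdf2l1, and its part in the results against sham beyond the values given was not tested.

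**Figure D2:**
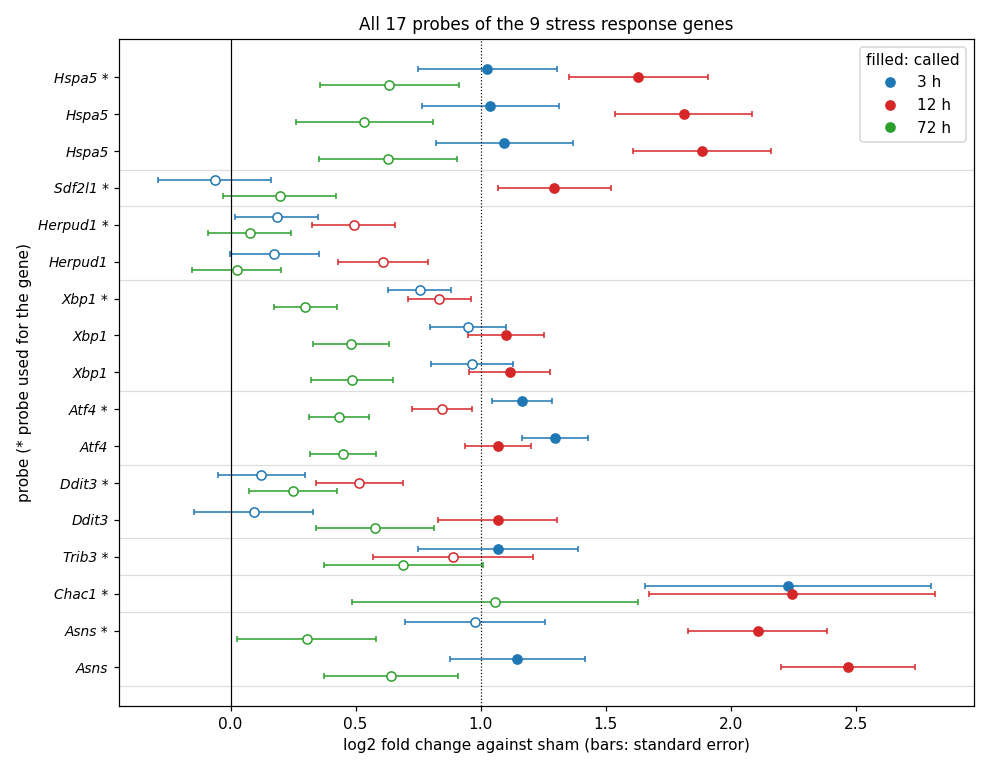
Log2 fold change against sham of all 17 probes at 3, 12 and 72 h, with the standard error, and filled symbols where called. The dotted line marks 2-fold. The probes of Hspa5 lie within 0.26 of each other at each time, those of Asns within 0.36, the RefSeq probe of Ddit3 is called at 12 h and the brighter one is not, and at 72 h no probe is called.

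Across probes, 8 of 17 were called higher at 3 h and 11 of 17 at 12 h, against 2.87% and 3.71% of all probes. Probes of 1 gene share its transcripts and are not independent. At 12 h the probes of Ddit3 differed by 0.55 in log2 fold change, those of Asns by 0.36, those of Xbp1 by 0.28 and those of Hspa5 by 0.26.

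The time points were then compared with each other. From 3 to 12 h, Asns and Sdf2l1 were called higher, 2 of 9 genes against 2.1% of all genes, and 0 were lower. The log2 difference was 1.36 for Sdf2l1 (SE 0.23, adjusted p = 0.00725 by limma) and 1.13 for Asns (adjusted p = 0.0338). Hspa5 differed by 0.60 (adjusted p = 0.214), Atf4 by -0.32 (adjusted p = 0.131) and Trib3 by -0.18 (adjusted p = 0.747), so the difference of Atf4 did not pass the test, although its arrays did not overlap between the 2 times. All 3 arrays were higher at 12 h than at 3 h for 4 genes and lower for 1, against 12% and 21.3% of all genes. Of the 17 probes 3 were called higher, against 1.8% of all probes.

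Within the first slide, on which 2 of the 12 h arrays lay, Sdf2l1 differed by 1.40 (adjusted p = 0.0476 by limma) and Asns by 1.23 (adjusted p = 0.109). The call for Asns was lost without sham replicate 2, 3 h replicate 2 or 3, any 1 of the 12 h arrays, or 72 h replicate 2 (values 1.02 to 1.23, adjusted p 0.0511 to 0.113).

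From 12 to 72 h, Asns and Sdf2l1 were called lower, 2 of 9 genes against 3.16% of all genes, and 0 were higher. Asns fell by 1.80 on the log2 scale (SE 0.28, adjusted p = 0.00229 by limma) and Sdf2l1 fell by 1.098 (adjusted p = 0.00911). Hspa5 had a difference of -0.995 on its brightest probe (adjusted p = 0.0344), just under 2-fold, and its other 2 probes fell by 1.27 and 1.26 and were called. Xbp1 (-0.54, adjusted p = 0.0162) and Atf4 (-0.41, adjusted p = 0.041) passed the adjusted p under 2-fold. All 72 h arrays lay below all 12 h arrays for 7 genes, against 23.2% of all genes, and 5 of 17 probes were called lower, against 2.74% of all probes. On the second slide, which holds 1 of the 12 h arrays and all 72 h arrays, the difference was -1.61 for Asns and -1.01 for Sdf2l1. Neither was called there, in a fit that had a lone 12 h array, assumed to vary like the 72 h arrays, and that passed 22 of all probes at the adjusted p. The call for Sdf2l1 was lost without 72 h replicate 2 (-0.995).

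The other genes of the pathway were described from 5 lists, which do not hold the 9 genes. Of 17 sensors, eIF2α kinases and phosphatases, the calls upward numbered 2, 1 and 2 at 3, 12 and 72 h, and 0 were called lower. Of all genes, 3.71%, 4.63% and 5.51% were called higher at these times, and the single call at 12 h was near that share. Ppp1r15a, which encodes GADD34 and directs the phosphatase that restores translation, was called higher at all 3 times. Its level was 1.17, 1.22 and 1.06 in sham, 2.45, 2.89 and 2.91 at 3 h, 3.24, 2.71 and 2.82 at 12 h, with 2.11, 2.18 and 2.33 at 72 h, so that no later array overlapped sham. The log2 fold change was 1.60, 1.77 and 1.06 (adjusted p = 0.000249, 9.55e-05 and 0.00207 by limma). Creb3l3, an ER-bound transcription factor, was higher at 3 h (1.34, adjusted p = 0.0046), and Creb3l1, another of that family, which serves collagen secretion, at 72 h (1.26, adjusted p = 9.29e-05).

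Of 24 ER chaperones and folding enzymes, 0 were called at 3 h by limma, also 0 at a 2-fold change with an unadjusted p under 0.05, 4 were called higher at 12 h and 1 at 72 h. Its median log2 fold change was 0.17, 0.49 and 0.19 at the 3 times. The 4 genes at 12 h were Manf (1.84, adjusted p = 0.00185 by limma) and Creld2 (1.70, adjusted p = 0.00275), which encode secreted proteins of the ER stress response, Hyou1 (1.34, adjusted p = 0.0158), an Hsp70-like chaperone, and Ero1l (1.28, adjusted p = 0.00899), an oxidase for disulfide bonds. The level of Manf was 1.45, 1.87 and 2.80 in sham, 3.04, 2.34 and 2.70 at 3 h, 3.83, 3.93 and 3.86 at 12 h, with 2.54, 2.48 and 2.73 at 72 h. Its 12 h arrays lay above the other 9, as those of Sdf2l1 did, and sham replicate 3 was again the highest sham array. Fkbp14, a prolyl isomerase that assists collagen folding, was higher at 72 h (1.16, adjusted p = 0.0135).

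Of 26 genes of ER-associated degradation and the translocon, 0 were called at 3, 12 or 72 h by limma, also 0 at a 2-fold change with an unadjusted p under 0.05. At 12 h, however, 15 of the 26 passed the adjusted p upward at smaller changes and 0 downward, against the 9.62% of all genes given above, and the median log2 fold change was 0.42. They included Edem1, which marks misfolded glycoproteins for degradation, at 0.96 (adjusted p = 0.000744), and Sec61a1, the channel of the translocon, at 0.71 (adjusted p = 0.0197), both chosen after their values were seen. At 3 h, 4 of the 26 passed the adjusted p upward, against 9.65% of all genes, and at 72 h 4 passed it, 3 of them upward. An unadjusted p under 0.05 was reached in either direction by 15, 20 and 7 genes at the 3 times. For the 72 h and the unadjusted counts no share of all genes is given here, so they are not read as a result about the list.

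Of 32 ATF4 targets of amino acid and tRNA metabolism, 3 were called higher at 3 h, 4 at 12 h and 1 at 72 h, and the calls downward numbered 0, 2 and 2. The shares of all genes called higher were 3.71%, 4.63% and 5.51%, and the single call upward at 72 h was not above its share. Over all genes, 4.43% were called lower at 3 h, 5.97% at 12 h and 4.46% at 72 h, and the share of the list called lower at 12 and 72 h was near these. Mthfd2, an enzyme of mitochondrial folate metabolism, rose by 1.08 on the log2 scale at 3 h (adjusted p = 0.0373 by limma) and by 2.03 at 12 h (adjusted p = 0.00141), and Psat1, of serine synthesis, 1.55 at 12 h (adjusted p = 0.0148). At 3 h the arrays of Mthfd2 overlapped sham, with 3 h replicate 2 at -0.73 and sham replicate 3, the highest sham array, at -0.70. Cbs, of the pathway from homocysteine to cysteine, fell by 1.71 on the log2 scale at 12 h (adjusted p = 0.000167), Gpt2, a mitochondrial aminotransferase, fell by 1.42 (adjusted p = 0.00688), and Cth, which follows Cbs in that pathway, fell by 1.49 at 72 h (adjusted p = 0.00117). Slc7a11, the cystine transporter, was named after its values were seen. Its level was -4.65, -5.97 and -4.49 in sham and 0.29, -0.55 and -0.57 at 12 h, when it was called higher (adjusted p = 8.2e-05), and since 2 of the 3 sham arrays were well above background its fold change is not given.

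Of 22 stress transcription factors, feedback and cell death genes, the calls upward numbered 6, 9 and 7 at the 3 times, with 0 lower. The shares of all genes called higher were 3.71%, 4.63% and 5.51%. Atf3, a repressor induced by ATF4 and by other stress and inflammatory signals, had a level of -0.69, -0.82 and -1.52 in sham, 1.30, 1.12 and 1.91 at 3 h, 1.36, 0.98 and 1.05 at 12 h, with -0.16, 0.08 and 0.23 at 72 h. Its log2 fold change was 2.45, 2.14 and 1.06 at the 3 times (adjusted p = 0.000259, 0.000358 and 0.0166 by limma). Gdf15, a cytokine of cell stress, was called at 3 h (1.99, adjusted p = 0.00132) and 12 h (1.16, adjusted p = 0.016) and not at 72 h (-0.29). Unlike the 9 genes, Cebpb, a factor also induced in inflammation, was called at 72 h (2.85, adjusted p = 5.05e-05), as were Jdp2, an AP-1 repressor (2.95, adjusted p = 0.000129), and Hmox1, which degrades heme (3.75, adjusted p = 1.2e-05). Whether their change at 72 h differs from that of the 9 genes was not tested.

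**Figure D3:**
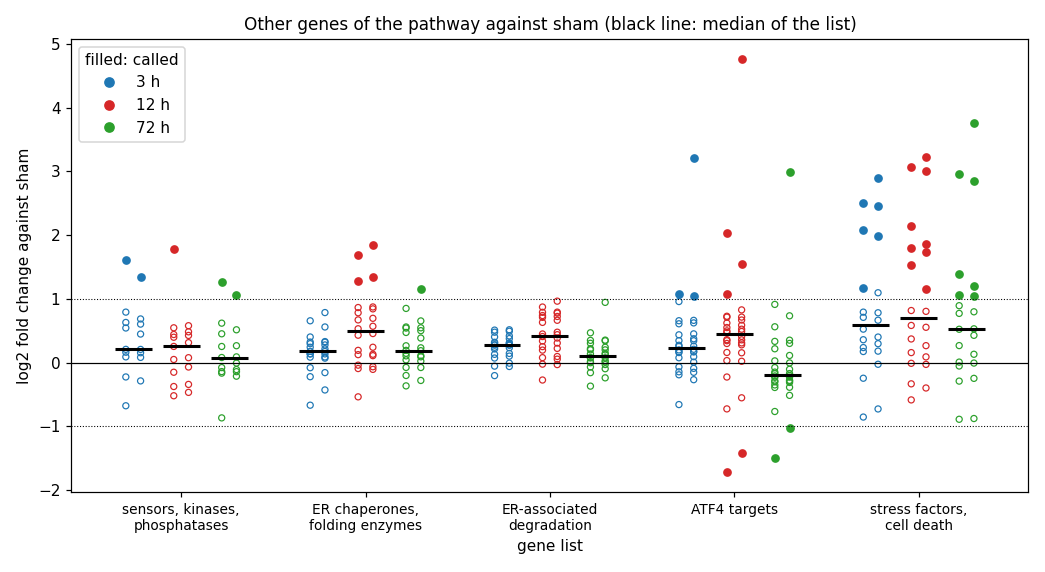
Log2 fold change against sham of each gene of the 5 pathway lists at 3, 12 and 72 h, with filled points where called and a black line at the median. Chaperones are called mostly at 12 h, with 4 of 24 against 4.63% of all genes. Of the degradation genes, 0 of 26 pass 2-fold at any time, although their median at 12 h is 0.42.

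Cell type markers moved over the same times, and their part in the results was not tested. Of all genes, 3.71%, 4.63% and 5.51% were called higher at 3, 12 and 72 h, and 4.43%, 5.97% and 4.46% lower. The summed level of 10 neutrophil markers was 5.83 to 6.02 in sham and 7.96 to 8.71 at 3 h. It was 9.15 to 9.22 at 12 h and 7.93 to 8.79 at 72 h. At the 3 times, 7, 9 and 6 of the 10 were called higher. Ly6g was called higher at 3 and 12 h but not at 72 h (-0.09, adjusted p = 0.922 by limma), when S100a8 and S100a9 still were. The 7 smooth muscle markers were called lower for 1 gene at 3 h and all 7 at 12 and 72 h. Of 10 macrophage markers, 1 was called lower at 3 h, 2 higher and 1 lower at 12 h, and 9 higher at 72 h. Of 9 fibroblast and collagen markers, 0 were called at 3 h, 4 were called lower at 12 h and 7 higher at 72 h. Among the secretory cells, the summed level of 10 goblet cell markers was 10.08 to 10.15 in sham, 10.37 to 10.43 at 3 h, 9.81 to 10.14 at 12 h and 9.59 to 10.09 at 72 h. That of 8 plasma cell markers was 5.41 to 5.77, 5.58 to 5.74, 5.41 to 5.55 and 4.97 to 5.65. The goblet cell sum thus lay above sham at 3 h, and it overlapped sham at 12 and 72 h. At 72 h the highest array (10.087) lay just above the lowest sham array (10.082). Spdef, a factor of goblet cell differentiation, was the 1 goblet cell marker called at 3 h (1.155, adjusted p = 0.00133 by limma). At 72 h Agr2 was called higher (1.005, adjusted p = 0.0416) and Clca1 lower (-1.595, adjusted p = 0.000948). Under 2-fold, Spdef (0.91) passed the adjusted p upward at 72 h, and Zg16 (-0.82) and Fcgbp (-0.78) downward. The plasma cell sum overlapped sham at each time. Such sums add intensities before the log2, so the brightest markers of a list weigh most. The plasma cell sum was mostly Jchain, with a mean level of 5.29 in sham beside 1.69 for the next marker, Sdc1. Among the other markers Tnfrsf17 was called lower at 12 h (-1.21). Fkbp11 was called higher at 12 and 72 h (adjusted p = 0.0151 and 0.0024 by limma), and it was above background on 1 of the 3 sham arrays. The summed level of 12 epithelial markers was 10.49 to 10.60 in sham, 10.825 to 10.96 at 3 h, 10.37 to 10.64 at 12 h and 9.53 to 9.99 at 72 h, so that it lay above sham at 3 h and below it at 72 h. Krt18 was called higher at 3 h, Slc26a3 lower at 12 h, and Cdx2, Slc26a3 and Car1 lower at 72 h. All 10 goblet cell and all 12 epithelial markers were above background on all 12 arrays. Of 6 mesothelial markers, Upk3b and Lrrn4 were called lower at 3 and 12 h, when they were well above background on 0 arrays, and 2, Wt1 and Upk1b, were called higher at 72 h.

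**Figure D4:**
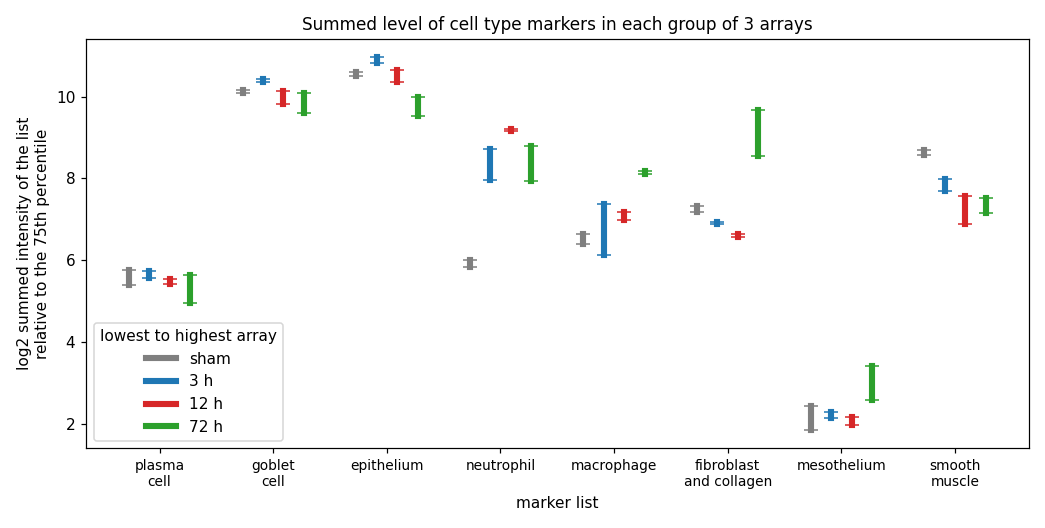
Summed level of 8 lists of cell type markers, from the lowest to the highest array of each group of 3, as log2 of the summed intensity relative to the 75th percentile. The neutrophil sum is above sham at every time, although Ly6g alone is not called at 72 h. The goblet cell and epithelial sums are above sham at 3 h, and the epithelial sum is below it at 72 h.

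Genes with the most similar pattern over the 12 arrays were sought among 16627 genes above background on all arrays, as a description, since the arrays share the time course. For Atf4 they were Bcl3, Stat3 and Cd3eap, with Pearson r of 0.992, 0.979 and 0.977. For Xbp1 they were Hspa8, Bid and Litaf (0.983, 0.98 and 0.979), and for Hspa5 Drg1, Gda and S100a11 (0.985, 0.976 and 0.973). For Asns they were Snrnp27, Mthfd2 and Ccdc43 (0.987, 0.984 and 0.974), of which Mthfd2 belongs to the list of ATF4 targets. Trib3 and Chac1 were among the 3 nearest genes of each other (0.926), and both were high on 12 h replicate 1. Trib3 was also near Fbxo11 and Fnip1 (0.952 and 0.925) and Chac1 near Spty2d1 and Icam1 (0.926 and 0.907). Sdf2l1 was nearest to Inpp1, Zfp428 and Ggct (0.954, 0.945 and 0.942), Herpud1 to Srd5a2, Ormdl1 and Bcl2l1 (0.889, 0.886 and 0.883), and the brighter probe of Ddit3 to Syne3, Gm30302 and Gm39121 (0.894, 0.894 and 0.886).

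Between the 9 genes, Pearson r over the 12 arrays was highest for Hspa5 with Asns (0.946), for Trib3 with Chac1 (0.926) and for Atf4 with Xbp1 (0.917). It was lowest for Trib3 with Sdf2l1 (0.20), for Atf4 with Sdf2l1 (0.28) and for Ddit3 with Herpud1 (0.28).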

How the data were processed

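RNA of 12 mouse ceca in 4 groups of 3, set by the labels, was measured on 1-colour arrays. Per spot, the authors deposited the intensity after background subtraction by Agilent Feature Extraction 11.5.1.1, with no normalization across arrays and with mm9 probe coordinates. Their second deposited table holds log2 values, which the methods scale to the 75th percentile and which are centred on row medians, and served as an alternative (Pearson r = 0.999563 with the recomputed values after centring). It holds no columns of comparisons.

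Control spots (3671 of 62976 per array) and outlier spots (53 to 152 per array) were left out, log2 was taken, the 75th percentile of the 59305 non-control spots was subtracted, and spots of a probe were averaged. Of the probes, 60.2% to 65.2% were well above background per array and 0 spots were saturated. The fit of group means used limma 3.58.1 (R 4.3.3), and pandas 2.3.3 read the tables. The test was checked on simulated data. The number of arrays limits the precision. Probe names are those of the array design.

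The 9 genes, the lists and the tests were chosen with earlier results of these data known. Named were the 9 genes, up to 5 genes per pathway list with the largest change against sham among those called and above background in both groups, and the 3 genes closest in pattern to each of the 9. Alternatives covered normalization, background, source of values, filters, slide, replicate number, test, probe choice and single arrays.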

Additional observations from a re-analysis of the deposited data

Results flagged for a closer look

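Of the 9 genes, 2 were called between successive time points, at a 2-fold change and an adjusted p below 0.05 by limma. Asns was higher at 12 h than at 3 h by 1.13 on the log2 scale and lower at 72 h than at 12 h (-1.80). Sdf2l1 was higher at 12 h than at 3 h by 1.36 and lower at 72 h than at 12 h (-1.10). The arrays of the compared times did not overlap for either gene, as for 12% of all genes upward from 3 to 12 h and 23.2% downward from 12 to 72 h. With the slide as a block, Asns was called in neither comparison (adjusted p = 0.0646 and 0.0635 by limma). In that fit Sdf2l1 kept its call for 12 h against 3 h and lost it for 72 h against 12 h (adjusted p = 0.137). Hspa5, Xbp1 and Atf4 also passed the adjusted p from 12 to 72 h, under 2-fold. No outlier test was made in groups of 3 arrays, and the arrays that decide a call are named with their genes.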

How the results depend on the processing

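Each alternative was run on all 9 genes. Of the 12 calls, 0 changed sign. The methods' t-test below called 0 genes, and so lost all 12, of which 4 were lost under no other alternative (Hspa5, Asns and Sdf2l1 at 12 h, Sdf2l1 for 12 h against 3 h) and 8 under others too. Among the 33 values not called, 15 kept their direction and side of the threshold throughout, 11 were called under some alternative and 7 changed sign under some. One alternative dropped the fold rule, which changes what a call is. It alone gave the calls of Xbp1 at 3 h, of Atf4 at 12 and 72 h, and of both genes for 72 h against 12 h. The methods' t-test, paired by replicate number, with Benjamini-Hochberg adjustment called 0 genes in each comparison, and at a 2-fold change with an unadjusted p under 0.05 it passed 3, 2, 0, 2 and 2 for 3, 12 and 72 h against sham, 12 h against 3 h and 72 h against 12 h. At 3 h the count was 2 with quantile normalization, 2 with the percentile over probes above background, 2 within the first slide, 1 by Dunnett's test and 6 without the fold rule. At 12 h without the fold rule it was 6. At 72 h it was 1 in a fit of the 2 groups alone and 1 without the fold rule. For 12 h against 3 h it was 1 with the slide as a block and 1 within the first slide, and for 72 h against 12 h it was 0 with the slide as a block, 0 within the second slide, which has a lone 12 h array, and 5 without the fold rule. Leaving out each array gave 1 to 4 genes at 3 h, 3 to 5 at 12 h, 0 to 1 at 72 h, 1 to 2 for 12 h against 3 h and 1 to 2 for 72 h against 12 h. With the replicate block, 12 h against 3 h had 1 called gene (Asns lost, 1.13, adjusted p = 0.0617 by limma), and no other call changed. Same-numbered arrays did not deviate together (r of -0.404 to 0.264 over 18 pairs, 6 above 0.1, and 2 of 12 arrays closest to their own number), so the numbers were not taken to pair the samples. Of values not called, Herpud1 at 3 h was -0.009 with quantile normalization, and Trib3 was 0.10 for 12 h against 3 h and 0.36 for 72 h against 12 h with the slide as a block, and the same within the first and second slide. Without single arrays, log2 values ran from -0.33 to 0.15 for Sdf2l1 at 3 h, -0.074 to 0.41 for Sdf2l1 at 72 h, -0.01 to 0.20 for Herpud1 at 72 h, -0.79 to 0.48 for Chac1 and -0.65 to 0.10 for Trib3 for 12 h against 3 h, and -0.48 to 0.27 for Trib3 for 72 h against 12 h. Quantile normalization moved the median of all probes by 0.14 at 72 h, 0.11 for 12 h against 3 h and 0.10 for 72 h against 12 h. The cause of these shifts was not tested. The first slide gave no 72 h comparison, the second only 72 h against 12 h, and Dunnett's test only those with sham.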
